A study of Mus musculus with 180 samples.

Results

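The 10 genes described here encode proteins of the granules of neutrophils, mast cells, basophils and cytotoxic lymphocytes, or proteins that go with those granules. They are Mpo, Ctsg, Elane, Prtn3, Cpa3, Mcpt8, Ms4a2, Gzmb, Lyz2 and S100a8, chosen by name, and all 10 are among the 14825 genes of the deposited table. Their levels were read in single cells of 4 populations, together with how often they were found in the same cell. The unit is TPM, a transcript abundance that is scaled for gene length and brings each cell to the same sum.

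The 47 CD11b+CD48+SK cells were donor cells taken from primary recipients 8 weeks post-transplantation. The transplanted MPP carried Mx1cre and Rosa LSL-Hoxb5-EGFP/+, so that pIpC, acting on the Mx1 promoter, switched on Cre and with it Hoxb5, and the irradiated hosts were CD45.1+. The 41 WT-MPP cells and the 36 BM HSC came from Rosa LSL-Hoxb5-EGFP/+ mice 8 weeks old. The 56 FL HSC came from embryos of that genotype at Day14.5. The mice were C57BL/6, and all 4 populations carried the Rosa allele, which without Cre is silent. The sort for WT-MPP excluded CD11b and CD48, while that for FL HSC required CD11b, so surface CD11b differed by design. The tissue field of the labels reads bone marrow for the fetal liver cells too. Transplanted control MPP were not analysed here, so the effects of Hoxb5, transplantation, irradiation and pIpC cannot be told apart.

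No animal is named for any cell, and each population therefore counted as 1 sample, with no test between populations. Intervals on shares are 95% exact Clopper-Pearson intervals and reflect only how many cells were counted. Read counts cannot be had from TPM, and depth is not known for any cell. In its place, genes reaching a TPM of 1 were counted, with medians per cell from 3844 for WT-MPP to 5206.5 for FL HSC, and 4514 for the CD11b+CD48+SK cells. Among the genes of the sort markers, every CD11b+CD48+SK cell held Cd48 at that level, and 36.2% held Itgam, the gene for CD11b.

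Neutrophils pack their granules in waves during maturation. The azurophil granules are filled earliest, at the promyelocyte stage, with myeloperoxidase and the serine proteases cathepsin G, neutrophil elastase and proteinase 3. Lactoferrin and gelatinase follow in later granules. Mast cells and basophils carry a different set, with carboxypeptidase A3 and mast cell proteases, and cytotoxic lymphocytes carry granzymes and perforin. These proteases are held in an acidic matrix around the proteoglycan serglycin. Early progenitors are known to transcribe some of these genes at low level before any granule is visible. The label of granule genes is loose for 2 members, since Ms4a2 encodes the beta subunit of the IgE receptor at the cell surface and S100a8 encodes a cytosolic calcium-binding protein of neutrophils and monocytes.

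The bases before the start of 5 of the genes are shown because Mpo, Ctsg, Mcpt8 and Cpa3 are the members whose level in the CD11b+CD48+SK cells exceeded that of each other population, and Elane is an azurophil gene listed at 0 in those cells. The sequences are from RefSeq on GRCm38.p6, read 5′ to 3′ on the strand of the gene, and stop where the GENCODE M21 gene model starts. Capitals mark matches on either strand to letters that are contained in the known binding motifs of blood cell regulators. GAGGAA was searched for PU.1, and TTGCNNAA for the C/EBP factors. For RUNX the letters were TGTGGT, and for MYB they were AACNGNC. The GATA factors were given the pair of motifs AGATAA and also TGATAA. No 2 matches overlapped.
Mpo, chr11:87793534-87793580, plus strand: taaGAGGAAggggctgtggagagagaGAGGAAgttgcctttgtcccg
Ctsg, chr14:56102575-56102824, minus strand: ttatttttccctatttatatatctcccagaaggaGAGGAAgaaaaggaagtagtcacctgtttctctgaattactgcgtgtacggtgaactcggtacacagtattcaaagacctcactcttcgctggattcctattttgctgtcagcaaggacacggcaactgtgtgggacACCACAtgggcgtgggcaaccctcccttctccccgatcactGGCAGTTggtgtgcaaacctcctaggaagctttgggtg
Mcpt8, chr14:56085274-56085447, minus strand: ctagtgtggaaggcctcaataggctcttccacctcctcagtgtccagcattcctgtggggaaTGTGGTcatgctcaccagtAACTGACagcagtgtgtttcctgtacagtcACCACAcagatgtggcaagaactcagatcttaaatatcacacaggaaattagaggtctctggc
Elane, chr10:79886062-79886246, plus strand: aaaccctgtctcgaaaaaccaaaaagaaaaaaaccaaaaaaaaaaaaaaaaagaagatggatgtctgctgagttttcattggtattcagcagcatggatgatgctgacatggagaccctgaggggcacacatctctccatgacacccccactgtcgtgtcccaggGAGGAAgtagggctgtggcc
Cpa3, chr3:20242182-20242431, minus strand: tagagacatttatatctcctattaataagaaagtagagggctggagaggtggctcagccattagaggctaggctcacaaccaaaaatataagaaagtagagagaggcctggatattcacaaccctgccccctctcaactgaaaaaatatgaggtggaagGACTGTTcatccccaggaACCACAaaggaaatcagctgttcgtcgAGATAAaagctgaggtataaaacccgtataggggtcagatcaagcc

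Motifs were counted in the whole 250 bases before each RefSeq start, which for Mpo, Mcpt8 and Elane run into the longer GENCODE model. GAGGAA was found in 6 of the 10 members (Mpo, Ctsg, Elane, Prtn3, Mcpt8 and S100a8), against 23.3% of all 32851 windows of this length. TGTGGT was found in 5 (Ctsg, Cpa3, Mcpt8, Gzmb and Lyz2), against 14%. AACNGNC was found in 5 (Mpo, Ctsg, Elane, Cpa3 and Mcpt8), against 27.7%. AGATAA was found in 2, Cpa3 and Ms4a2, against 9.99%. TTGCNNAA was found in none, against 9.56% of all windows. TGATAA was likewise found in none, against 7.94%, which says only that these letters are not in these windows. The window of Cpa3 thus differed from those of Mpo, Ctsg, Elane and Mcpt8 in holding AGATAA and no GAGGAA. A match is a string of letters and not a measured binding site.

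In GENCODE M21 on GRCm38 the members lie on 5 chromosomes. Prtn3 (chr10:79874476-79883174) lies 3072 bases upstream of Elane (chr10:79886247-79888215). Mcpt8 (chr14:56082166-56085273), Ctsg (chr14:56099881-56102574) and Gzmb (chr14:56258838-56262260) share the protease cluster on chromosome 14, with 14607 bases between Mcpt8 and Ctsg and 156263 between Ctsg and Gzmb. Lyz2 is also on chromosome 10, Mpo on 11, Cpa3 and S100a8 on 3 and Ms4a2 on 19.

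Mpo, Ctsg, Cpa3 and Mcpt8 were the members whose levels in the CD11b+CD48+SK cells exceeded those of BM HSC, FL HSC and WT-MPP alike. The differences are between means over cells of log2(TPM+1), and the smallest of the 3 was 5.17 for Ctsg, 5.06 for Cpa3, 4.88 for Mpo and 1.92 for Mcpt8. A difference of 1 was the size used to call a gene. A gene was compared where 10% or more of the cells of a population reached a TPM of 1, which left 10856 genes. With a pseudocount of 10 in place of 1, the difference of Mcpt8 from BM HSC was 0.995, just under that size, and 3 members were called. With a pseudocount of 0.1, or with the log2 of the mean TPM plus 1, 6 were called, Ms4a2 and S100a8 being added. Of the genes compared, 1.9% were above each other population by at least 1, and Ctsg, Cpa3, Mpo and Mcpt8 ranked 11, 12, 13 and 68 by their smallest difference. No member was below each other population by that size (2.38% of genes). Elane did not pass the filter. Ctsg, Mcpt8, Ms4a2 and S100a8 passed it through the CD11b+CD48+SK cells alone, so for them a difference in that direction was set by the filter. Of the other members, Prtn3 and Lyz2 were present in most cells of all populations, and Elane, Ms4a2, Gzmb and S100a8 were rarely detected.

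**Figure D1:**
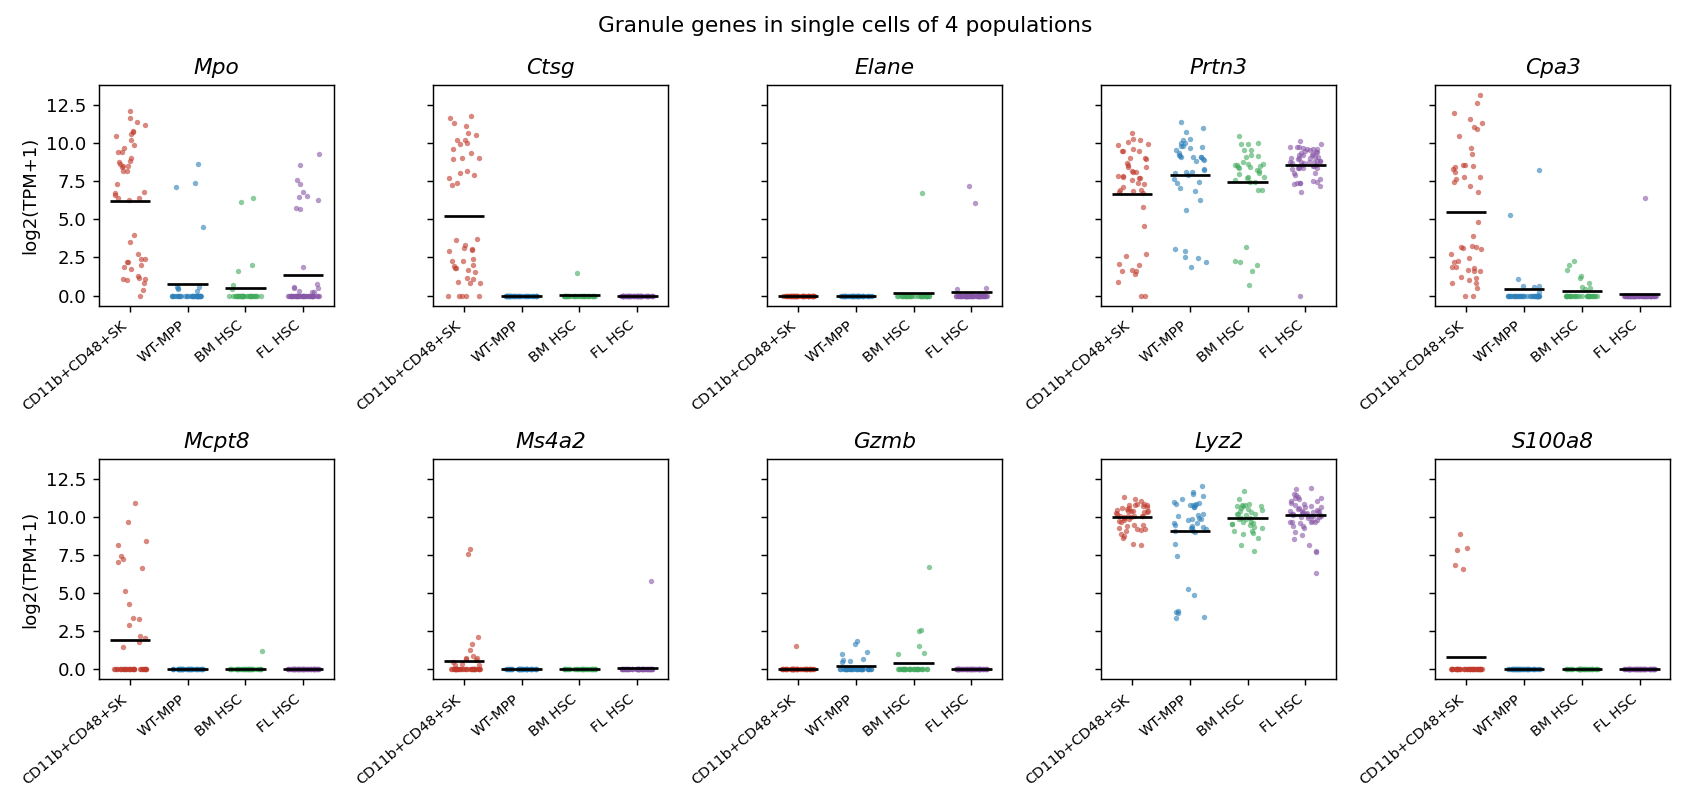
Each panel plots 1 gene and each point 1 cell, with log2(TPM+1) on the vertical axis, the 4 populations on the horizontal axis and a black bar at the mean over cells. Mpo, Ctsg and Cpa3 spread from 0 to above 11 in the CD11b+CD48+SK cells and sit near 0 in most other cells, while Prtn3 and Lyz2 are high in all 4 populations.

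Mpo encodes myeloperoxidase, the haem enzyme that makes hypochlorous acid in the azurophil granule. In the CD11b+CD48+SK cells its TPM ran from 0 through a median of 110 to 4282. The median was 0 in each other population, with highest values of 609 (FL HSC), 386 (WT-MPP) and 84.0 (BM HSC). The groups overlapped, since low cells were found in every population. It reached a TPM of 1, called present here, in 43 of 47 CD11b+CD48+SK cells (91.5%, interval 79.6 to 97.6%). Among the other populations FL HSC held it in 19.6% of cells (10.2 to 32.4%), BM HSC in 11.1% (3.11 to 26.1%) and WT-MPP in 9.76% (2.72 to 23.1%). The mean log2(TPM+1) was 6.22 (SD over cells 3.85) for the CD11b+CD48+SK population, and FL HSC, WT-MPP and BM HSC had 1.34, 0.73 and 0.48. Those 3 lower means differed by less than the SD over cells, which was 1.49 to 2.73.

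Ctsg encodes cathepsin G, a serine protease of the same granule. Its TPM in the CD11b+CD48+SK cells ran from 0 through a median of 8.98 to 3470. It was listed at 0 in every WT-MPP and FL HSC cell and was at 1.76 in a single BM HSC. Detection was thus nearly confined to the CD11b+CD48+SK cells, 39 of 47 of which held it (83.0%, interval 69.2 to 92.4%). The exact interval for 0 cells reaches 8.60% in WT-MPP and 6.38% in FL HSC, and it limits the share of cells listed at a TPM of 1, not of cells that express the gene. The mean log2(TPM+1) of 5.21 (SD 4.10) stood against 0.04 in BM HSC.

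Cpa3 encodes the mast cell carboxypeptidase, which is also transcribed in some haematopoietic progenitors. It reached the highest TPM of any member in any cell, 9063, with a median of 13.9 and a lowest value of 0 in the CD11b+CD48+SK cells. The highest value was 304 in WT-MPP, 81.7 in FL HSC and 3.91 in BM HSC, with a median of 0 in each. Of the CD11b+CD48+SK cells, 87.2% held it (74.3 to 95.2%). The share was 13.9% for BM HSC (4.67 to 29.5%), 7.32% for WT-MPP (1.54 to 19.9%) and 1.79% for FL HSC (0.0452 to 9.55%). The CD11b+CD48+SK cells had a mean log2(TPM+1) of 5.47 (SD 4.04), and the other means ran from 0.11 to 0.41. Its mean was 742 TPM over the 47 cells and 561 TPM without the highest cell.

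Mcpt8 encodes mast cell protease 8, a basophil protease in the mouse. It was present in 17 of 47 CD11b+CD48+SK cells (36.2%, interval 22.7 to 51.5%), with a highest TPM of 1947 and a median of 0. Elsewhere it was found in 1 BM HSC, at 1.32 TPM. The mean of 85.7 TPM rested on few cells. Without the highest cell it was 45.3 TPM, and the smallest difference in mean log2(TPM+1) was 1.73.

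Low values made up much of the presence of the 3 most widely detected of these genes. Of the CD11b+CD48+SK cells, 12 held Mpo, 16 held Ctsg and 17 held Cpa3 at a TPM from 1 to below 10. Few cells lay between 10 and 100, namely 6 for Mpo, 2 for Ctsg and 2 for Cpa3, and a large group lay at 100 or above, namely 25, 21 and 22 cells. The levels were thus in 2 ranges with a sparse gap. Among the 1091 genes that were at 100 TPM or more in 30 to 60% of the CD11b+CD48+SK cells, the median number of cells from 1 to below 10 TPM was 4, and 3 genes, Ctsg and Cpa3 among them, had 16 or more. The cause of these low values was not tested. Shares of cells are therefore also given at 100 TPM, where 53.2% of the CD11b+CD48+SK cells held Mpo (38.1 to 67.9%), 44.7% held Ctsg (30.2 to 59.9%) and 46.8% held Cpa3 (32.1 to 61.9%). At that level Mpo was found in 7.32% of WT-MPP, 8.93% of FL HSC and no BM HSC, Cpa3 in 2.44% of WT-MPP only, and Ctsg in none of the other populations.

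**Figure D2:**
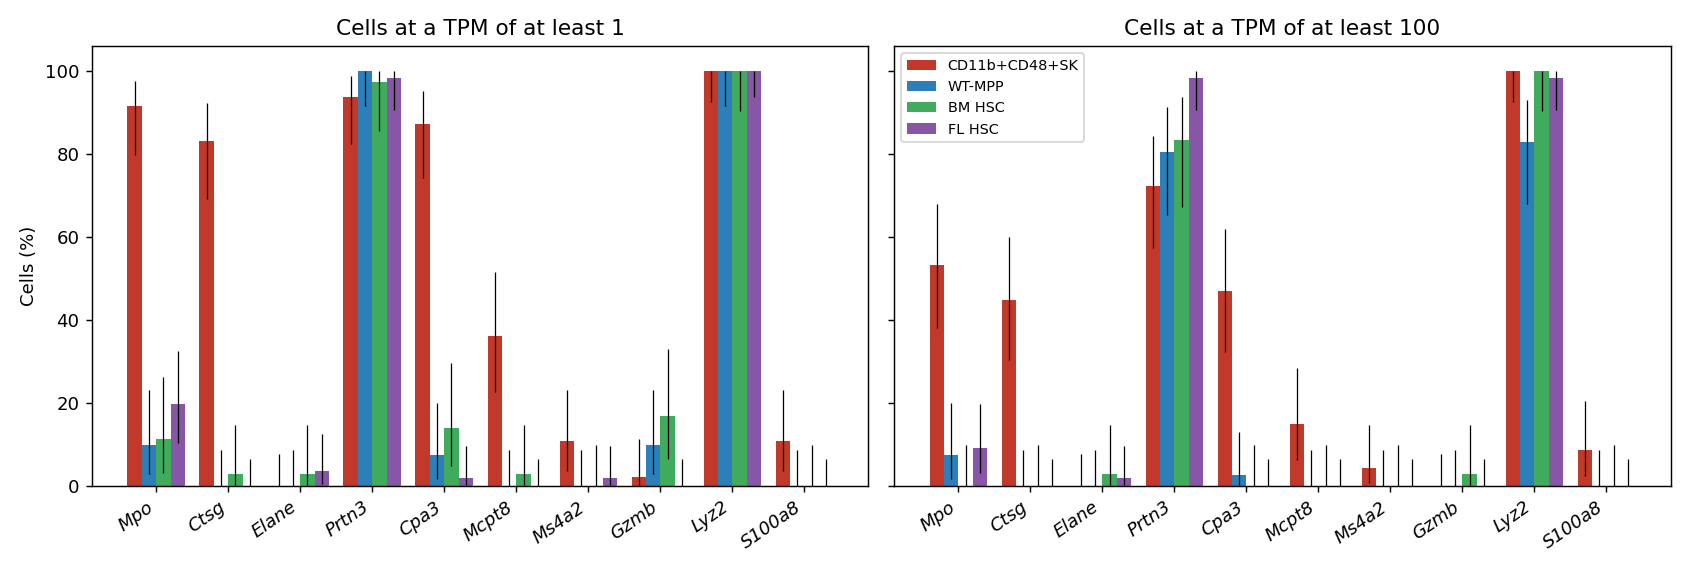
Bars give the percentage of cells of each population at a TPM of at least 1 (left) or at least 100 (right) for the 10 genes, and the lines give 95% exact intervals over cells. Raising the threshold lowers Mpo from 91.5 to 53.2% and Ctsg from 83.0 to 44.7% of the CD11b+CD48+SK cells, while Lyz2 stays at 100%.

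Prtn3 and Lyz2 were high in all populations. Prtn3 encodes proteinase 3, the close neighbour and relative of elastase, and was present in 175 of the 180 cells (97.2%). The CD11b+CD48+SK cells had a median TPM of 204 (0 to 1594). It was 479 for WT-MPP (2.61 to 2658), 311 for BM HSC (0.651 to 1421) and 436 for FL HSC (0 to 1122). The ranges overlapped almost wholly. The mean log2(TPM+1) was lowest in the CD11b+CD48+SK cells, at 6.67 (SD 3.15) against 7.43 in BM HSC, 7.92 in WT-MPP and 8.56 in FL HSC. The order did not hold for every summary, since WT-MPP had the highest mean TPM (561), before FL HSC (471), BM HSC (373) and the CD11b+CD48+SK cells (343). Of all listed genes, 595 were present in at least as large a share of cells as Prtn3. In the annotation its 5′ end overlaps Plppr3, a gene on the opposite strand that is not in the table, and how reads there were assigned is not given in the sources used here.

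Lyz2 encodes lysozyme, which breaks bacterial cell walls and is carried by neutrophils, monocytes and macrophages. It was present in 180 of 180 cells, as were 268 genes in all. The median TPM was highest in FL HSC at 1156, followed by 1067 for the CD11b+CD48+SK cells, 963 for BM HSC and 885 for WT-MPP, and 102 genes had a mean TPM at or above that of Lyz2. The spread over cells was narrow in the CD11b+CD48+SK cells (SD 0.76 on the log2(TPM+1) scale) and wide in WT-MPP (SD 2.50). In WT-MPP, 7 cells lay below 100 TPM, and these had a median of 3001 genes present against 4024.5 in the other 34. Its near-identical neighbour Lyz1 was present in 66.1% of FL HSC, at a mean of 1.70 TPM, and in no CD11b+CD48+SK cell. Reads of the pair can be divided between them, so the value of each is uncertain.

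Elane, the gene for neutrophil elastase, was listed at 0 in all 47 CD11b+CD48+SK cells, for which the exact interval on the share of cells listed with it reaches 7.55%. It was also at 0 in all WT-MPP. It was present in 1 BM HSC, at 104 TPM, and in 2 FL HSC, at 146 and 67.6 TPM. The CD11b+CD48+SK cells thus held transcripts of Mpo and Ctsg, which encode azurophil granule proteins, without detected Elane, 3072 bases from the widely detected Prtn3. In the 50 kb on each side of that pair, 5 other protein-coding genes are listed. Ptbp1, R3hdm4 and Med16 were present in 91.5%, 97.9% and 51.1% of the CD11b+CD48+SK cells. Arid3a was present in 10.6% and Kiss1r in 2.13% of these cells. Neighbours differed on chromosome 14 too. Ctsg and Mcpt8 were found in the CD11b+CD48+SK cells, Gzmb in 1 cell, and the granzymes that lie between Ctsg and Gzmb (Gzmc to Gzmg and Gzmn) are not in the table.

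Gzmb, which encodes granzyme B of cytotoxic lymphocytes, was at 1.88 TPM in 1 CD11b+CD48+SK cell, and was present in 4 WT-MPP cells and 6 BM HSC. All of these were below 5 TPM except for a BM HSC above 100. S100a8 was present in 5 CD11b+CD48+SK cells (10.6%, interval 3.55 to 23.1%), at 471, 245, 223, 114 and 94.8 TPM, and in no other cell. Unlike Mpo and Ctsg it had no cell at a low level. Ms4a2 was present in 5 CD11b+CD48+SK cells, at 237 and 185 TPM in 2 of them and below 4 TPM in 3, and in 1 FL HSC at 55.1 TPM.

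The presence of several members in a cell was counted next. A CD11b+CD48+SK cell held a median of 5 of the 10 genes (2 to 7), and a cell of each other population held 2. Those 2 were mostly Prtn3 and Lyz2. Over the 8 genes without them the median was 3 (1 to 5) against 0, and 44 of 47 CD11b+CD48+SK cells held at least 2, against 2 of 36 BM HSC, 1 of 41 WT-MPP and 1 of 56 FL HSC. At 100 TPM, 24 CD11b+CD48+SK cells still held at least 2 of the 8 and 10 cells held none. The 10 genes together made up 0.342% (SD over cells 0.257) of the TPM of a CD11b+CD48+SK cell on average, against 0.183% for FL HSC, 0.170% for WT-MPP and 0.149% for BM HSC. The 8 genes took 0.193% (SD 0.246) in the CD11b+CD48+SK cells and at most 0.00384% elsewhere, and their share varied from 0.000259 to 0.968% between CD11b+CD48+SK cells.

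At least 2 of Mpo, Ctsg, Elane and Prtn3 were held by 44 of the 47 CD11b+CD48+SK cells (93.6%, interval 82.5 to 98.7%), and by 21.4% of FL HSC, 13.9% of BM HSC and 9.76% of WT-MPP. Without Prtn3, which was present almost everywhere, the share was 76.6% (62.0 to 87.7%) in the CD11b+CD48+SK cells and at most 2.78% elsewhere. At 100 TPM the share over the 4 genes was 48.9% (34.1 to 63.9%).

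**Figure D3:**
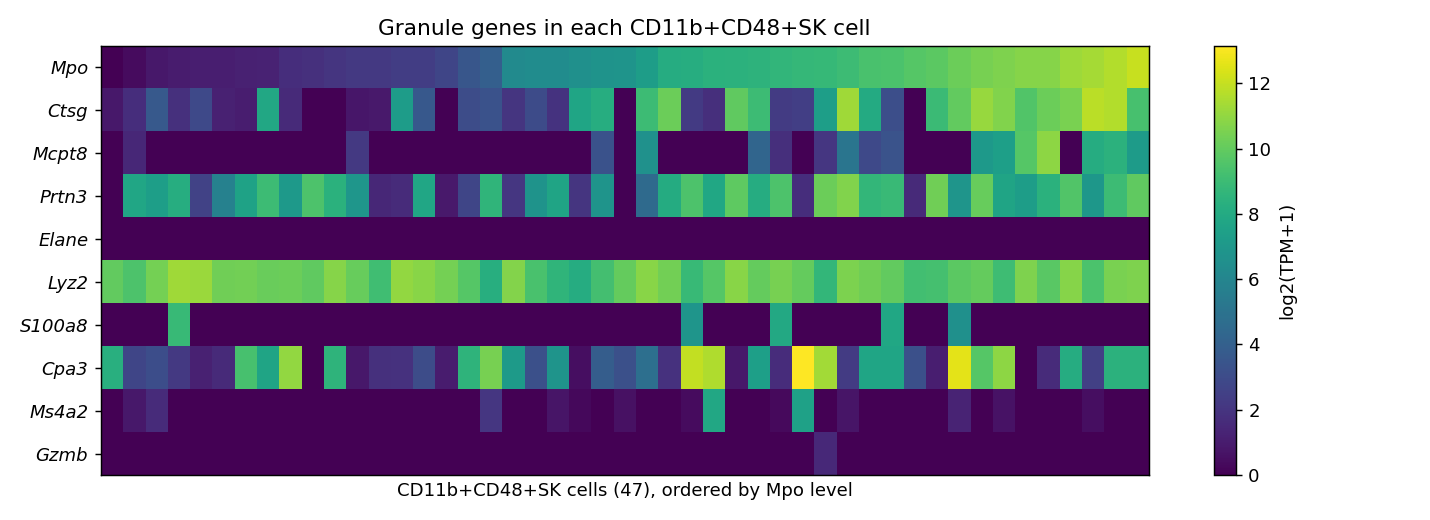
Each column is 1 of the 47 CD11b+CD48+SK cells, ordered from low to high Mpo, each row is 1 gene, and the colour gives log2(TPM+1). Ctsg and Mcpt8 are brightest towards the right, where Mpo is high, Cpa3 is bright in cells all along the order, and Elane is at 0 throughout.

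Within the CD11b+CD48+SK cells, Mpo, Ctsg and Mcpt8 went together. At 100 TPM, 18 cells held both Mpo and Ctsg, 7 Mpo alone, 3 Ctsg alone and 19 neither, where the product of the 2 shares gives 11.2 cells with both. All 7 cells with Mcpt8 at 100 TPM also held Mpo and Ctsg at 100 TPM. The product of the shares gives 3.72 cells for Mcpt8 with Mpo and 3.13 for Mcpt8 with Ctsg. Cpa3 shared 13 cells with Mpo (product 11.7) and 10 with Ctsg (product 9.83). The contrast between Ctsg and Cpa3 depended on the threshold, which was chosen after the values were seen. At 10 TPM, Mpo shared 19 cells with Ctsg (product 15.2) and 19 with Cpa3 (product 15.8), and at 1 TPM it shared 36 with Ctsg (product 35.7) and 37 with Cpa3 (product 37.5). At 10 TPM all 10 cells with Mcpt8 held Mpo (product 6.60) and Ctsg (product 4.89). At 1 TPM, Mcpt8 was in 17 cells and shared 16 with Mpo (product 15.6) and 16 with Ctsg (product 14.1), nearer to the products.

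The same order appeared in Spearman's correlation coefficient over the 47 cells, which share their sort and their unknown depth and are described with no p. The coefficient was 0.68 for Mpo and Ctsg (Pearson's r of log2(TPM+1) 0.67), 0.60 for Mpo and Mcpt8 (0.59), 0.57 for Ctsg and Mcpt8 (0.64) and 0.45 for Ctsg and Prtn3 (0.43). These were the 4 pairs at 0.4 or more among the 36 with a value, and the median over the pairs was 0.08. Mpo and Prtn3 stood at 0.39. Cpa3 had a coefficient of 0.19 with Mpo, 0.08 with Ctsg and -0.01 with Mcpt8, and Lyz2 of -0.14 with Mpo. No member had a coefficient of 0.4 or more with Lyz2 (0.514% of the other genes did). Of 6615 genes that are not members and were present in at least 25% of these cells, 0.68% had a coefficient of 0.4 or more with Mpo, and the highest was 0.58, below Ctsg and Mcpt8. With Ctsg the share was 0.726% and the highest coefficient 0.53, with Mcpt8 0.801% and 0.57, with Cpa3 0.544% and 0.55, and with Prtn3 0.287% and 0.52.

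The number of genes present per cell moved with some of these levels, with a Spearman coefficient of 0.42 for Mcpt8, 0.38 for Ctsg, 0.21 for Mpo and -0.02 for Cpa3. The partial Spearman coefficient given that number was 0.66 for Mpo and Ctsg, 0.57 for Mpo and Mcpt8 and 0.50 for Ctsg and Mcpt8. In the 36 cells that held both Mpo and Ctsg, the Spearman coefficient was 0.72.

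**Figure D4:**
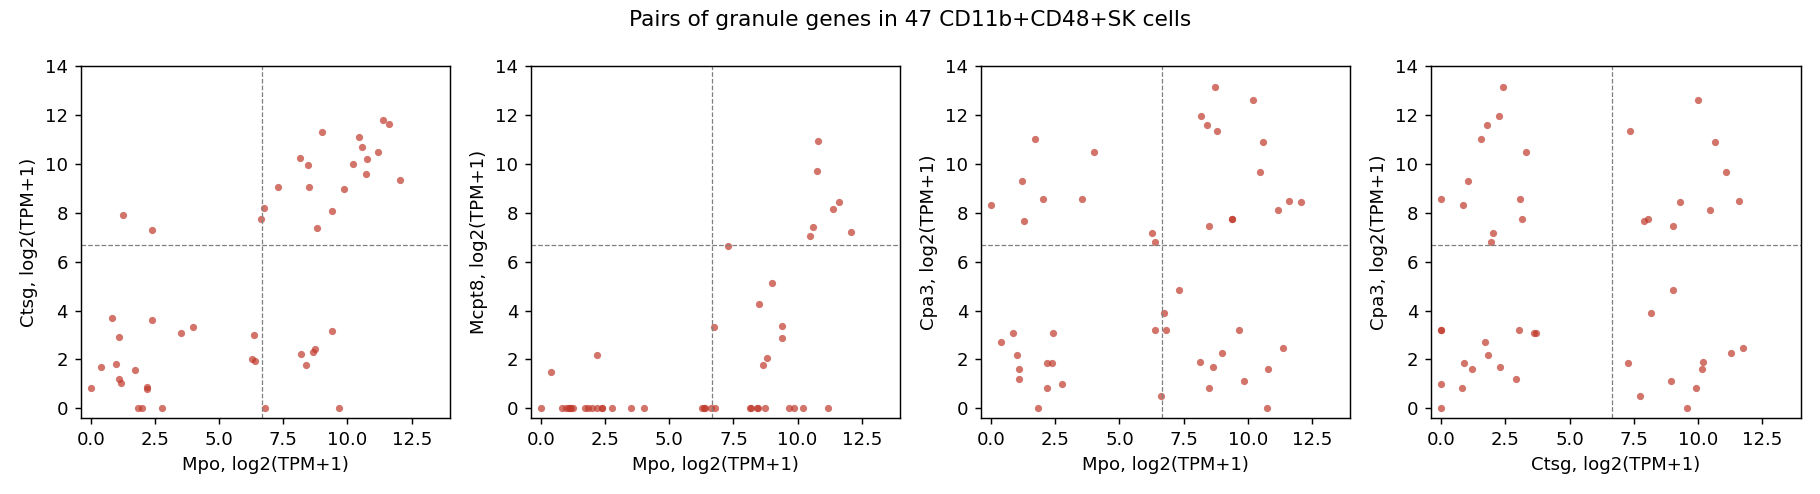
Each point is 1 of the 47 CD11b+CD48+SK cells, both axes give log2(TPM+1), and dashed lines mark 100 TPM. Mpo and Ctsg share 18 cells in the upper right, all cells with Mcpt8 above the line are also high in Mpo, and Cpa3 fills all 4 fields against Mpo (13, 12, 9 and 13 cells) and Ctsg.

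**Figure D5:**
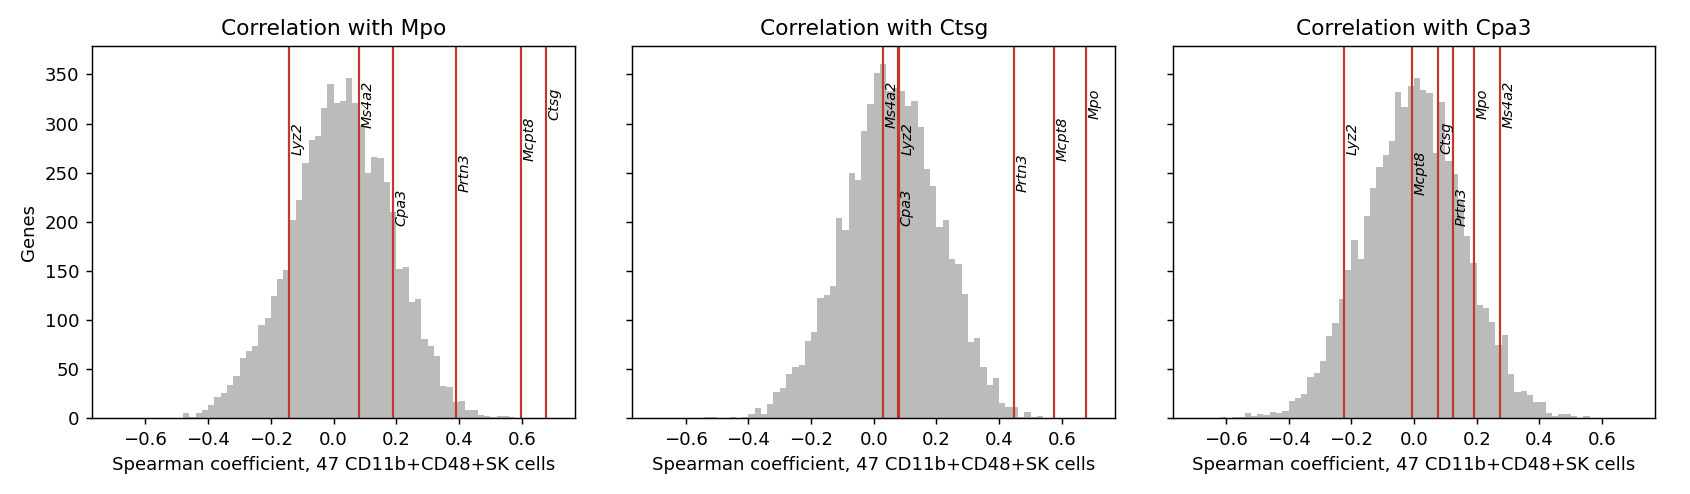
Grey bars count the 6615 other genes by their Spearman correlation coefficient with Mpo, Ctsg or Cpa3 over the 47 CD11b+CD48+SK cells, and red lines mark members. Ctsg (0.68) and Mcpt8 (0.60) lie above every other gene for Mpo, whereas for Cpa3 the members lie between -0.22 and 0.27.

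For description the CD11b+CD48+SK cells were divided by level into 4 sets, counted after the values were seen. Crossing 2 yes-or-no criteria always gives 4 sets, so the division is no evidence of subtypes. Singly, Mpo and Ctsg shared 13 and 10 cells with Cpa3, near the products of the shares (11.7 and 9.83). At 100 TPM, 14 cells held Mpo or Ctsg without Cpa3 (29.8%, interval 17.3 to 44.9%), 8 held Cpa3 alone (interval 7.65 to 30.8%), 14 held both kinds and 11 held none of the 3. Mcpt8 was present in 7, 0, 8 and 2 cells of these sets. Of the 5 cells with Ms4a2, 4 were in the sets with Cpa3, and 3 of these were in the set that held both kinds. The pair of cells above 100 TPM for Ms4a2 were also above 100 TPM for Cpa3 and for Mpo. These few cells therefore do not set Cpa3 apart from Mpo.

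Single cells of the other populations also held more than 1 member. The WT-MPP cell 24 had Mpo at 168 and Cpa3 at 304 TPM, and the FL HSC cell 56 had Cpa3 at 81.7 and Ms4a2 at 55.1 TPM. The BM HSC cell 16 had 6 members present, with Mpo at 2.08, Ctsg at 1.76, Cpa3 at 1.22 and Gzmb at 4.99 TPM. In the first 2 of these cells the levels were of the order seen in the CD11b+CD48+SK cells, and in the last they were low.

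The comparison of means was also read for each pair of populations, with WT-MPP as the group nearest in origin to the transplanted cells. Against WT-MPP, 4 of the 9 members compared were higher by at least 1 (background 19%) and 1, Prtn3, was lower (5.01%, difference -1.25). The 4, here and in the next 2 comparisons, were Mpo, Ctsg, Cpa3 and Mcpt8, with the direction of Ctsg and Mcpt8 set by the filter. Against BM HSC, 4 were higher (13.4%) and none lower (11.8%). Against FL HSC, 4 were higher (4.02%) and Prtn3 was lower (20.9%, difference -1.88). Neither call of Prtn3 held with the log2 of the mean TPM plus 1, where its difference was -0.71 from WT-MPP and -0.46 from FL HSC. The median over the 9 members compared was 0.94, 0.81 and 0.81 (0.88, 0.68 and 0.62 over all 10). Over all genes compared it was 0.21, -0.001 and -0.32. Among the members compared, Ms4a2 and S100a8 also passed the filter through the CD11b+CD48+SK cells alone. These 3 comparisons share the CD11b+CD48+SK cells. Between the other populations 2 differences reached 1. Lyz2 in WT-MPP minus FL HSC was -1.05 (33.9% of genes lower), and Prtn3 in BM HSC minus FL HSC was -1.13 (25.6%). No member was higher than in FL HSC by 1 in WT-MPP (3.08%) or in BM HSC (5.44%).

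Other genes of the azurophil granule and the promyelocyte showed a mixed picture. Of 15 in the list, all were compared. In the CD11b+CD48+SK cells 6 were above each other population by at least 1 (1.9% of all genes compared) and 2 were below (2.38%). Among those above were Nkg7, a granule membrane protein, Plac8, the inhibitor of neutrophil serine proteases Serpinb1a, the granule protease Prss57 and the inhibitory receptor Clec12a. All CD11b+CD48+SK cells held Serpinb1a, against 85.4% for WT-MPP, 50% for BM HSC and 3.57% for FL HSC. For Prss57 the shares were 66.0%, 12.2%, 5.56% and 5.36% in the same order. Those below were Cd63, a tetraspanin of granule membranes, at a mean TPM of 139 against 599 to 1266, and Ctsc, the dipeptidyl peptidase that activates the granule serine proteases, which 55.3% of the CD11b+CD48+SK cells held against 80.6 to 85.7% elsewhere. Srgn, which encodes serglycin, was found in every cell. The list's median difference was 0.99 against WT-MPP, 1.16 against BM HSC and 0.80 against FL HSC. The median over all genes compared was 0.21, -0.001 and -0.32 in that order. The list's summed TPM in the CD11b+CD48+SK cells ran from 4585 to 16381, with a median of 9253 against 5079 in WT-MPP. The shares of 1.9% and 2.38% are also the background for the lists that follow.

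Of 16 genes of later granules and mature neutrophils, 5 are in the table, and Ltf alone was compared. In the CD11b+CD48+SK cells S100a9, the partner of S100a8, was present in 2 cells, Cxcr2 in 1, and Ltf, Camp and Il1b in none. Both cells with S100a9 were among the 5 with S100a8. Ltf, which encodes lactoferrin, was present in 6 FL HSC (10.7%), 4 of them at 100 TPM or more, and Camp, which encodes an antimicrobial peptide of the later granules, in 2 BM HSC. Of 16 mast cell and basophil genes, 10 are in the table and 4 were compared. Fcer1g, the shared signalling chain of Fc receptors, was above each other population (89.4% of the CD11b+CD48+SK cells held it, against 66.1 to 80.5%). Slc18a2, which loads histamine and other amines into granules, was below each (23.4% against 48.8 to 86.1%). Mcpt4 and Cma1, both mast cell chymases, were in no CD11b+CD48+SK cell, Hdc, which makes histamine, was in 4 cells and Il1rl1 in 1. Elsewhere Mcpt4 was in 4 WT-MPP cells, and Cma1 in 6 BM HSC and 1 WT-MPP cell. Hdc was in 10 FL HSC and 1 BM HSC, and Il1rl1 in no cell of the other populations. The eosinophil list had 2 of 9 genes in the table and none compared.

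Of 17 genes of cytotoxic lymphocytes, 6 are in the table and 4 were compared. Nkg7, also counted in the azurophil list, and the cysteine protease inhibitor Cst7 were above each other population. Each was held by 97.9% of the CD11b+CD48+SK cells, while Gzmb was in 1 cell. Elsewhere Nkg7 was held by 43.9% of WT-MPP, 8.93% of FL HSC and 5.56% of BM HSC. Cst7 was held by 2.44% of WT-MPP and by no BM HSC or FL HSC. Cst7 thus passed the filter through the CD11b+CD48+SK cells alone, so its direction was set by the filter. Serpinb9 was below each other population (10.6% against 31.7 to 38.9%). Klrb1c was in no CD11b+CD48+SK cell, against 22.2% of BM HSC and 12.5% of FL HSC. Of 15 monocyte and macrophage genes, 12 are in the table, 5 were compared and none was above or below each other population. Ctss, which encodes the lysosomal protease cathepsin S, was held by 55.3% of the CD11b+CD48+SK cells, at a mean of 111 TPM, against 56.1% for WT-MPP, 22.2% for BM HSC and 12.5% for FL HSC. Irf8, a transcription factor of monocytes and dendritic cells, was held by 25.5% of the CD11b+CD48+SK cells and 42.9% of FL HSC, and the lysosomal protein gene Cd68 by 8 and 29 cells of these populations. Csf1r and Ccr2 were in no CD11b+CD48+SK cell, and the list's summed TPM there had a median of 50.5 (0 to 678), with 7 of the 12 genes at 0 in every cell. The erythroid, megakaryocyte, B cell and T cell lists had no gene above each other population. Of 12 stem and progenitor genes, Flt3, Cd48 and Hoxb5 were above each other population and Kit, Procr, Mecom and Hlf below. Cd48 was a sort marker and Hoxb5 was the gene switched on.

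The genes encoding regulators of granule transcription and the growth factor receptors were read as a list of 18, of which 17 are in the table and 14 were compared. None was above each other population, and Gata2 and Kit were below each. Cebpa, a factor needed for granulocyte formation, was held by 48.9% of the CD11b+CD48+SK cells, against 31.7% for WT-MPP, 8.33% for BM HSC and no FL HSC. Cebpe, which acts at the later granule stage, was in no CD11b+CD48+SK cell. Gfi1, a repressor that acts in neutrophil formation, had a share of 51.1% among the CD11b+CD48+SK cells, against 85.7% of FL HSC, 24.4% of WT-MPP and 13.9% of BM HSC. Csf3r, the G-CSF receptor, was present in 59.6%, against 51.8% of FL HSC, 51.2% of WT-MPP and 16.7% of BM HSC. Spi1 is not in the table. Over the CD11b+CD48+SK cells, the Spearman coefficients of the genes in this list ran from -0.38 (Runx1) to 0.22 (Cebpd) with Mpo. With Ctsg they ran from -0.23 (Runx1) to 0.49 (Irf8, held by 25.5% of these cells). Irf8 had 0.22 with Mpo. Cebpa had -0.08 with Mpo and -0.09 with Ctsg, Gfi1 had -0.27 and -0.19, and Csf3r had 0.13 and 0.04.

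The genes with a pattern most like the mean log2(TPM+1) of Mpo, Ctsg, Elane and Prtn3 in the CD11b+CD48+SK cells were Coa6 (Spearman coefficient 0.56), Sh3kbp1, Srek1, Cpt2, Me2, Tmem55a, Ndufab1, 1110065P20Rik, Emilin2 and Arl6ip4 (0.48). Those with the lowest coefficient were Gm5111 (-0.47), Irf2, Samsn1, Ablim1 and Dda1 (-0.43). Of the 6615 genes, 62 (0.937%) had a coefficient of 0.4 or more. For Cpa3 the highest were Cdkal1 (0.55), Nt5c3 (0.55) and Srgn (0.52). The lowest for Cpa3 were Rasgrp2 (-0.62), Emb (-0.57) and Dntt (-0.55), and Flt3, the CD135 gene, had -0.52. In the list of regulators and receptors the coefficients with Cpa3 ran from -0.21 (Cebpd) to 0.48 (Gata2). Between them lay Kit at 0.36, Myb at 0.18, Gata1 at 0.06 and Runx1 at -0.16. Dntt, which encodes the terminal transferase of lymphoid progenitors, had a coefficient of -0.28 with Mpo and -0.11 with Ctsg. At 100 TPM, 9 of the 22 cells with Cpa3 held Dntt, against 14 of 25 with Mpo, 13 of 21 with Ctsg and 29 of all 47.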

How the data were processed

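Single cells were sorted and sequenced. The authors processed the reads with HISAT2 (2.1.0), StringTie (1.3.4), SAMtools (0.1.19) and bcl2fastq, named in the submitters' processing notes with the build mm10, and deposited 1 table of TPM. The annotation and the filter that left 14825 genes are not given in the sources used here. Of 181 columns of cells, 1 without a sample was not used. No cell was removed, and since wells held single sorted cells no doublet caller was run.

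Values were read with Python 3.11.15, numpy 2.4.6, pandas 2.3.3, scipy 1.17.1 and matplotlib 3.10.9. Means over cells were taken of log2(TPM+1), a scale that understates differences of low genes, and genes present (TPM of at least 1) in at least 10% of the cells of a population were compared. The labels tie no cell to an animal, so no test was made. The code was tested on simulated data. Alternatives covered the threshold for presence, the pseudocount, the averaging, the scaling of cells and the correlation measure.

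Members and lists were chosen with earlier results of these data known. The rule for named genes took the members, the 10 genes of highest and 5 of lowest correlation with the azurophil mean, up to 4 genes per list by share of cells, and the sort markers. Genes named beyond it, the threshold of 100 TPM, the 4 sets of cells, the neighbouring genes, the likeness to single members, the comparison of low values and the limit of 250 bases were chosen after the values were seen. Some genes of the lists are not reported here.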

Additional observations from a re-analysis of the deposited data

How the results depend on the processing

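Alternatives were run with a TPM above 0, of at least 10 or of at least 100 counted as present, pseudocounts of 0.1 and 10, the log2 of the mean TPM plus 1, cells scaled by the median ratio, no filter on low values, Pearson's r, and results without Prtn3. Others were the cells with at least the median number of genes, correlations partial on genes per cell or with values below 1 TPM set to 0, genes in at least 10% of cells or Mpo alone for the likeness, and the median over cells for the share of TPM. The threshold of 100 TPM and the leaving out of Prtn3 were added after the data were seen. Of the summary values under these alternatives, 30 stayed within their limits and 8 moved. Most are counts or shares, which cannot change sign, and the median difference did not. The limits were wide, since 6 members called in place of 4 counted as staying. So did 10 pairs found together in at least 10 cells in place of 15. The share of CD11b+CD48+SK cells with at least 2 azurophil genes was 61.7% at 10 TPM, 48.9% at 100 TPM and 76.6% without Prtn3. The median number of members per cell was 3 at 100 TPM. The median difference from WT-MPP over the members compared was 4.67 with the log2 of the mean TPM plus 1, a measure that weights high cells. Of the 10 genes most like the azurophil mean, 6 were shared with Pearson's r, 2 with Mpo alone and 4 without Prtn3.

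Of the values for single genes, 116 stayed within their limits and 34 moved. Those that crossed the size of 1 were Mcpt8 minus BM HSC (0.995 at a pseudocount of 10), and Prtn3, whose lower level stood at -0.95 from WT-MPP at that pseudocount, and at -0.71 from WT-MPP and -0.46 from FL HSC with the log2 of the mean. Ms4a2 and S100a8 passed 1 against each population at a pseudocount of 0.1 (1.07 to 1.23 and 1.16) and with the log2 of the mean (at least 2.36 and 4.67), and Elane and Gzmb passed -1 against BM HSC with the log2 of the mean (-1.96 and -2.05), as did Elane against FL HSC (-2.27). The median over all genes compared, 0.21 from WT-MPP as reported, was 0.35 at a pseudocount of 0.1, 0.05 at 10 and -0.32 with the log2 of the mean.

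No paired analysis was possible because the results come from no test and the numbers in the labels only name cells. Leaving out replicates was not run because each population is 1 sample. The number of animals behind each population and the depth are unknown, and presence at a low TPM was the measure most dependent on the threshold.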
